A study of Mus musculus with 4 samples.

Results

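The genes of the cytosolic ribosomal proteins were compared between old and young skeletal muscle. They were selected by symbol, as Rpl or Rps followed by a number, Rplp0 to Rplp2 or Rpsa, and symbols beginning with Rps6k, which name kinases, were left out. This gave 76 symbols in 75 annotated loci, of 20340 gene labels with a value in all 4 samples. Of the 76, 63 encode core ribosomal proteins (37 of the large 60S subunit and 26 of the small 40S subunit), 7 are paralogs of core genes, 5 are annotated pseudogenes, and 1, Rps19bp1, encodes a protein that binds a ribosomal protein. The symbols Rplp1 and Rpsa were not analysed here.

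Tibialis anterior (TA) muscle, a shin muscle made mostly of fast fibers, was collected from C57BL/6 mice at 20 months of age (Old 1 and Old 2) and at 3 months of age (Young 1 and Young 2), and its mRNA was sequenced to find genes altered in age-related muscle atrophy. The mice were wild type and, by the study's account, healthy, and the methods state that the sex of the mice was chosen at random. The dataset's design text speaks of triplicates, while 2 samples per age were analysed. The labels do not say whether the samples of an age came from separate mice. A figure legend of the study speaks of 2 independent mRNA-seq experiments per sample, without saying whether these used separate mice. The p-values therefore measure only the spread between these samples, which may be technical.

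Each cytosolic ribosome joins a small subunit, which decodes the mRNA, to a large subunit, which forms the peptide bonds. Most of its proteins are needed in equal amounts, and the genes are scattered over the genome. Mammalian ribosomal protein mRNAs begin with a C followed by a run of pyrimidines, the 5′ terminal oligopyrimidine (TOP) tract, through which mTOR signaling and the RNA-binding protein LARP1 control their translation. Ribosome content is a main determinant of the capacity of muscle to make protein. Many ribosomal protein genes also have processed pseudogenes, so reads of near-identical copies may be split between loci.

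The start sites of 8 core genes and 1 paralog are shown because the TOP tract lies there, and because these genes span the range of age differences described below. Each line gives 30 bases on the gene's strand, 15 before the annotated start and the first 15 of exon 1 (5′ UTR), from RefSeq on GRCm38.p6, the build also named mm10. Capitals mark a longest unbroken run of C and T in the window.
Rps6, chr4:86857353-86857382, minus strand: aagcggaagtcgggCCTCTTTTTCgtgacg
Rpl7a, chr2:26910792-26910821, plus strand: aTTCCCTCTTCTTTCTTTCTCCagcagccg
Rps27, chr3:90213634-90213663, minus strand: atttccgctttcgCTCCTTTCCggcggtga
Rpl38, chr11:114668565-114668594, plus strand: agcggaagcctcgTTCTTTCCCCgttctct
Rplp2, chr7:141447636-141447665, plus strand: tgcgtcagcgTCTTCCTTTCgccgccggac
Rpl15, chr14:18270972-18271001, minus strand: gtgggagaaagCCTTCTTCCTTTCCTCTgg
Rps2, chr17:24720048-24720077, plus strand: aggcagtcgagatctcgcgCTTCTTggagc
Rps16, chr7:28350674-28350703, plus strand: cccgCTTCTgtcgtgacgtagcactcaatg
Rpl3l, chr17:24727811-24727840, plus strand: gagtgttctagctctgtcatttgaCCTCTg
The runs were 21 bases long in Rpl7a, 17 in Rpl15 and 10 in Rps6, Rpl38 and Rplp2. They were 9 in Rps27, 6 in Rps2 and 5 in Rps16 and in the paralog Rpl3l. The starts used in this muscle were not measured, so a short run at an annotated start does not show that a gene lacks the TOP tract.

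Promoter sequence (250 bases before to 50 after the start) was at hand for 46 of the 63 core genes. A pyrimidine run of at least 8 bases, sense strand, was present within 30 bases on either side of the start in 23 of the 46 (50%). It was present in 22.8% of 27025 genes. This region is wider than the windows shown above. The letters CCGGAA, the core of ETS factor sites, were found on either strand of the promoter in 25 (54.3%), against 15.2% of all genes. The letters CTTTCC, which can lie within a pyrimidine run, were found in 23 (50%), against 26.3% of all genes. The letters AAGATGG, part of the YY1 site, were found in 7 (15.2%), against 6.48%. The TATA box letters TATAAA were found in 3 (6.52%), against 14.2% of all genes.

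Levels are the deposited FPKM, in which fragment counts are divided by transcript length and by the sample's total of mapped fragments. Over the 20340 gene labels with a value in all 4 samples, which reach only to chromosome 7 with chromosomes in text order (10 before 2), the FPKM summed to 698130 and 226747 for Old 1 and Old 2 and to 251294 and 739302 for Young 1 and Young 2, and between 5055 and 9325 gene labels were listed at 0 in a sample. Depth is unknown, because FPKM hold no read counts. Of the muscle fiber markers, fast-fiber genes such as Mylpf and Pvalb were highly expressed, while Ckm was listed at 0 in all 4 samples, so a listed 0 need not mean that a gene was silent.

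The core ribosomal protein genes were among the highly expressed genes of the muscle. The 62 core genes above 0 in every sample had a median of 507 FPKM for Old 1, 255 for Old 2, 204 for Young 1 and 399 for Young 2. Their share of these sums, which leave out the chromosomes not analysed here, was 4.89% and 7.39% for Old 1 and Old 2 and 5.72% and 3.85% for Young 1 and Young 2, so within each age the share was larger in the sample with the smaller sum. Levels ran from Rpl3, at 48.0, 24.7, 23.5 and 44.5 FPKM in Old 1, Old 2, Young 1 and Young 2, to 1171 FPKM for Rps29 in Old 1 and 1379 FPKM for Rps2 in Young 2. The order of the genes by level was close to the same in the samples of an age (Spearman's rho across genes 0.985 for Old and 0.989 for Young), and between ages rho was 0.926 to 0.946.

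**Figure D1:**
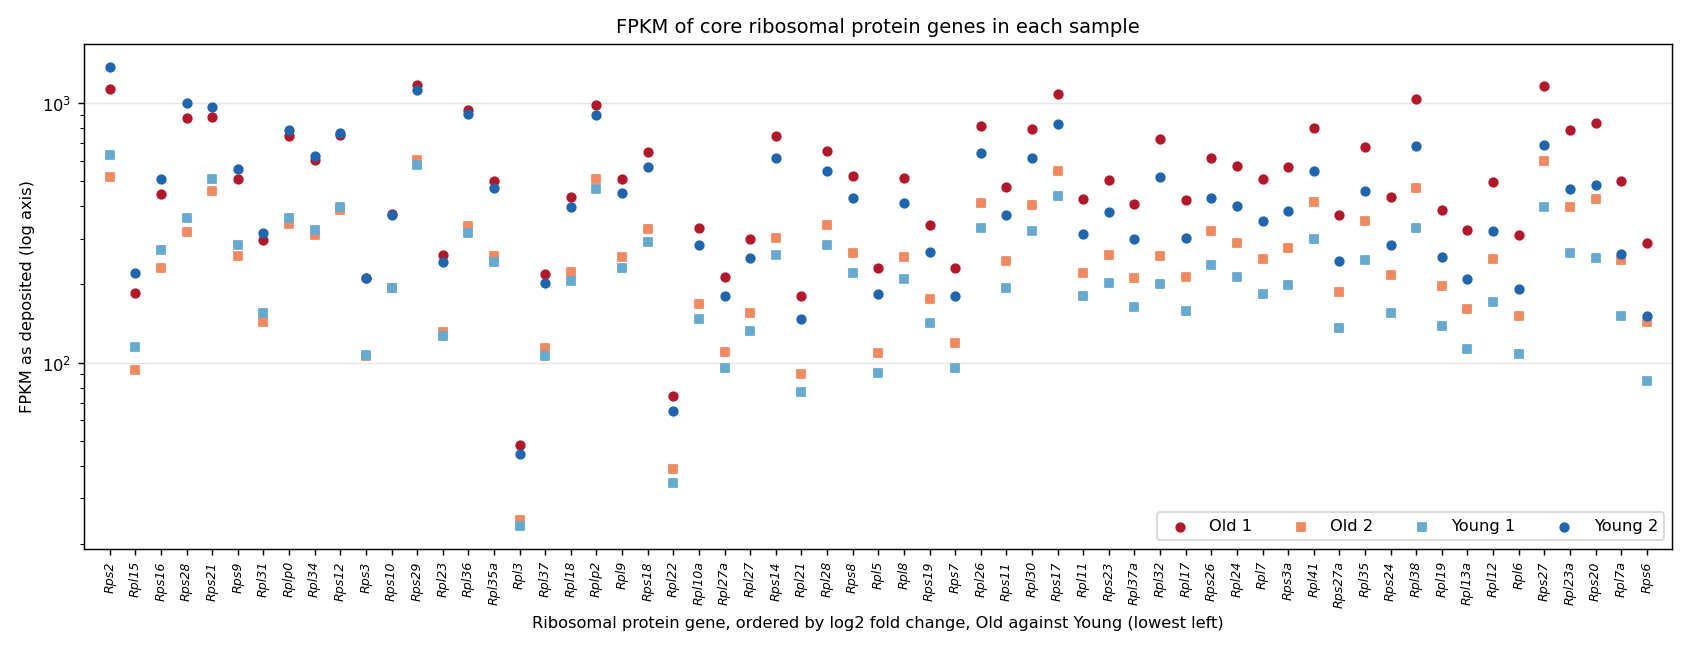
FPKM as deposited (log axis) of 61 core ribosomal protein genes above 0 in all samples, ordered from the lowest to the highest log2 fold change of Old against Young. Circles mark Old 1 and Young 2 and squares mark Old 2 and Young 1. For most genes Old 1 lies above Young 2 and Old 2 above Young 1, with Rps2 and Rpl15 at the left the other way and Rpl7a and Rps6 furthest apart at the right.

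The samples of an age differed by a factor that was almost shared by these genes. Among 50 core genes whose locus held a single symbol and reached no more than 5 kb beyond the gene, the log2 ratio of Old 1 to Old 2 ran from 0.94 to 1.13 (median 0.97, SD 0.04 across genes) and that of Young 2 to Young 1 from 0.79 to 1.13 (median 0.93, SD 0.06). Old 1 and Young 2 were thus about as far above Old 2 and Young 1 as each other. By their summed FPKM, Old 1 was of like scale with Young 2 and Old 2 with Young 1, and these pairs were set side by side. In the 12 other core loci above 0, which were wider or held other symbols, the ratios spread further, from 0.95 to 1.49 for Old and from 0.86 to 1.51 for Young.

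To ask whether ribosomal protein genes differed with age, the ages were set against each other on the log2(FPKM + 1) scale across the 10266 genes that reached 1 FPKM in 2 or more samples. Of the 76 symbols 72 passed this filter, among them all 63 core genes. The median log2 fold change of the core genes was 0.29, from -0.28 to 0.84, with 51 higher and 12 lower in Old, that is 81.0% higher against 48.1% of all tested genes, whose median was -0.01. With a sample left out, the ages no longer held samples of like scale. The median of the core genes was then -0.23 without Old 1 and -0.21 without Young 1, and 0.81 without Old 2 and 0.79 without Young 2. Within the pairs of like scale, described below, the median ratio of Old to Young was 1.25 and 1.196. The large subunit genes had a median of 0.29 (33 of 37 higher) and the small subunit genes a median of 0.29 (18 of 26 higher). In whole muscle, more RNA per cell and more cells of a type cannot be told apart.

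No ribosomal protein gene passed the test on the FPKM as deposited (limma, Benjamini-Hochberg adjusted p under 0.05), where 0.175% of all tested genes were called higher and 0.127% lower in Old. None of the core genes reached an unadjusted p under 0.05 in this fit either, where only 77 of all 10266 tested genes did. The median standard error of the core genes was 1.08 on the log2 scale. For a single gene, an exact permutation test of 2 against 2 samples cannot give a two-sided p below 0.333.

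Within the pairs of like scale, Old 1 against Young 2 and Old 2 against Young 1, 49 of the 63 core genes were higher in Old in both pairs, where 42.3% of all tested genes were. The median ratio was 1.25 in the first pair and 1.196 in the second. At least 1.2-fold higher in both pairs, on the log2(FPKM + 1) scale, were 30 core genes, where 16.2% of all tested genes were, and 1, Rps2, was at least 1.2-fold lower in both, where 19.9% of all tested genes were. Lower in both pairs were 11 core genes (45.2% of all tested genes), among them Rpl15, Rpl31, Rplp0, Rps2, Rps16 and Rps28. Of these, Rpl31 and Rps28 had loci that reached more than 5 kb beyond the gene. Rps3 and Rps10 differed in sign between the pairs, with ratios of 1.00 and 0.991 and of 1.01 and 0.9999, and Rps15 was listed at 0 in the second pair. The pairs and this fold were chosen after the values were seen. Because the ratio between samples of an age was nearly shared by the core genes, the second pair is not an independent check of the first.

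**Figure D2:**
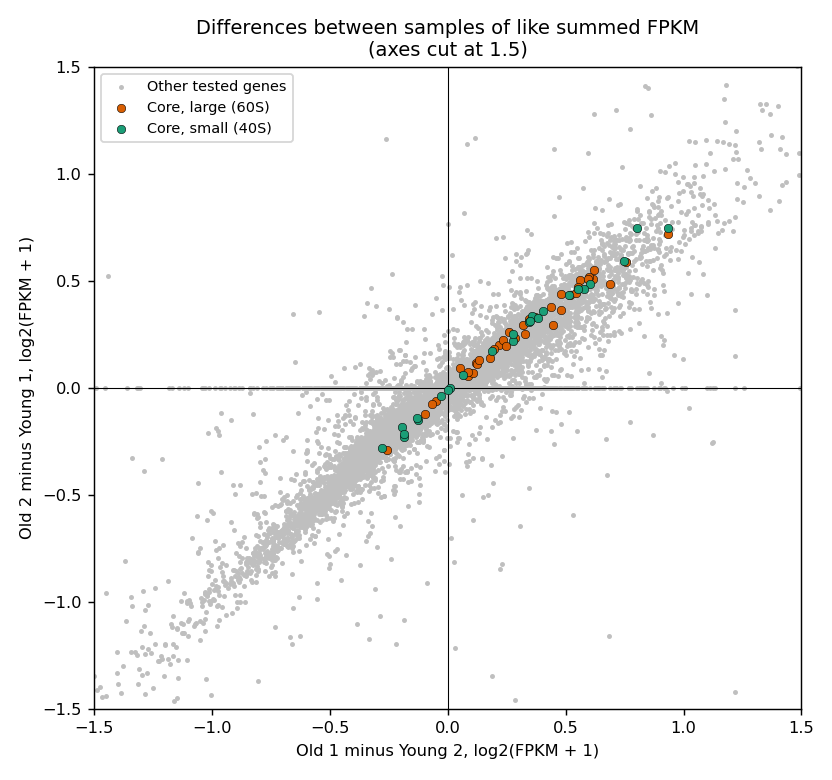
Difference of log2(FPKM + 1) between Old 1 and Young 2 (horizontal axis) and between Old 2 and Young 1 (vertical axis) for all tested genes (gray) and the core genes of the large (orange) and small (green) subunit, with both axes cut at 1.5. Of the core genes, 49 lie in the upper right quadrant and 11 in the lower left one. Gray points along the horizontal line had the same listed value, mostly 0, in Old 2 and Young 1.

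With cyclic loess normalization, which removes a factor between samples that varies with the level, the median log2 fold change of the core genes was 0.36 and the median standard error 0.089. In that fit 20 core genes rose in Old, or 31.7%, where 11.1% of all tested genes rose, and 0 fell, where 13.6% of all tested genes fell. With the normalized levels of both old samples above both young samples were 49 core genes (31.0% of all tested genes), and below them were 3, Rpl15, Rpl31 and Rps2 (31.0% of all tested genes). The locus of Rpl31 reached more than 5 kb beyond the gene. Scaled by the median ratio alone, 31 core genes had both old samples above both young samples (23.7% of all tested genes) and 1 had them below (23.5%), while on the FPKM as deposited no core gene did in either direction (1.61% and 1.93%). With quantile normalization 38 core genes lay above (23.9%) and 0 below (23.8%), and limma called none of them, where 0.867% of all tested genes were called higher and 1.32% lower. With the replicate number as a block none was called either (0.0195% higher and 0.0292% lower), and with the pairs of like scale as a block 46 were called higher, where 27.4% of all tested genes were, and 8 lower, where 32.9% were.

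The 20 genes that rose after loess normalization were 14 of the large subunit (Rpl5, Rpl6, Rpl7, Rpl7a, Rpl8, Rpl12, Rpl13a, Rpl17, Rpl19, Rpl21, Rpl23a, Rpl24, Rpl35 and Rpl38) and 6 of the small subunit (Rps3a, Rps6, Rps7, Rps20, Rps24 and Rps27a). Of these, the loci of Rpl5, Rpl38 and Rps27a reached more than 5 kb beyond the gene, and that of Rpl13a held other symbols.

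The largest differences were those of Rps6, Rpl7a, Rps20, Rpl23a and Rps27. Rps6, the protein that S6 kinase phosphorylates in the small subunit (locus chr4:86854099-86857367), had 288 and 143 FPKM in Old 1 and Old 2 and 84.7 and 151 FPKM in Young 1 and Young 2. Old 1 stood 1.91-fold above Young 2 and Old 2 stood 1.69-fold above Young 1, although Old 2 lay below Young 2 on this scale. Its log2 fold change was 0.84 (SE 1.01, adjusted p = 1.00) as deposited and 0.89 (SE 0.084, adjusted p = 0.014) with loess normalization.

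Rpl7a, a large subunit protein (locus chr2:26910807-26913311), had 502 and 249 FPKM in Old 1 and Old 2 and 151 and 262 FPKM in Young 1 and Young 2. The old samples were 1.91-fold and 1.65-fold above the young samples of like scale. With loess normalization Rpl7a rose by a log2 of 0.90 (SE 0.12, adjusted p = 0.022). Rpl7a also had the longest pyrimidine run of the windows shown above.

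Rps20, of the small subunit, had 839.9 and 426 FPKM in Old 1 and Old 2 and 253 and 481 FPKM in Young 1 and Young 2, and it rose by a log2 of 0.88 with loess normalization (SE 0.11, adjusted p = 0.022). Rpl23a, which lies near the exit of the peptide tunnel, had 789 and 396 FPKM in Old and 264 and 466 FPKM in Young, and it rose by 0.77 (SE 0.14, adjusted p = 0.040). Rps27, a zinc finger protein of the small subunit, had 1163 and 601 FPKM in Old and 398 and 692 FPKM in Young. Its loess difference of 0.79 (SE 0.18) missed the threshold, with an adjusted p of 0.062.

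At the other end stood Rps2, Rpl15, Rps16 and Rps28, and none of these 4 fell past the threshold as deposited or with loess normalization. Rps2, at the mRNA entry of the small subunit, had 1136 and 519 FPKM in Old 1 and Old 2 and 631 and 1379 FPKM in Young 1 and Young 2. Its log2 fold change was -0.28 (SE 1.22) as deposited and -0.15 with loess normalization (SE 0.087, adjusted p = 0.308), and with quantile normalization its sign turned to 0.18. Rpl15, a large subunit protein, had 185 and 93.5 FPKM in Old and 114 and 221 FPKM in Young, with a loess difference of -0.22 (SE 0.048) and an adjusted p of 0.054.

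Rps16, another small subunit protein, had 448 and 231 FPKM in Old and 271 and 509.8 FPKM in Young. Its log2 fold change was -0.21 as deposited and -0.12 with loess normalization (adjusted p = 0.515). Rps28 had 875 and 319 FPKM in Old and 362 and 1002 FPKM in Young, which is a log2 difference of -0.19, but its locus reached more than 5 kb beyond the gene. Rpl15 and Rpl7a both had long pyrimidine runs and lay at opposite ends of the age differences.

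The stalk of the large subunit, which recruits the elongation factors, is built from Rplp0 and the acidic proteins P1 and P2. Rplp0 had 750.0 and 343 FPKM in Old 1 and Old 2 and 361 and 786 FPKM in Young 1 and Young 2, a log2 fold change of -0.07 that turned to 0.036 with loess normalization (SE 0.057, adjusted p = 0.737) and to 0.048 with quantile normalization. Rplp2 had 987 and 509 FPKM in Old and 465 and 899 FPKM in Young, which is a log2 difference of 0.13 (loess 0.25, SE 0.14, adjusted p = 0.303). Neither stalk gene passed the threshold as deposited or with loess normalization.

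Some ribosomal proteins have known roles apart from the shared one. Rpl38, which is needed for the translation of certain mRNAs in the embryo, had 1036 and 469 FPKM in Old and 330 and 685 FPKM in Young and rose by 0.66 with loess normalization (SE 0.072, adjusted p = 0.017), in a locus wider than the gene. Rpl5 and Rpl11 form, with 5S rRNA, the particle that binds Mdm2 and stabilizes p53. Rpl5 had 231 and 109 FPKM in Old and 91.4 and 184 FPKM in Young and rose by 0.34 (SE 0.034, adjusted p = 0.015), also in a wide locus. Rpl11 had 428 and 221 FPKM in Old and 180.2 and 314 FPKM in Young, with a difference of 0.45 that did not pass (SE 0.12, adjusted p = 0.090).

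Rps19 and Rps14 are the genes lost or mutated in Diamond-Blackfan anemia and in the 5q- syndrome, respectively. Rps19 had 339.6 and 176 FPKM in Old and 142 and 267 FPKM in Young (loess 0.40, SE 0.082, adjusted p = 0.051), and Rps14 had 744 and 303 FPKM in Old and 259.8 and 613 FPKM in Young (loess 0.35, SE 0.089, adjusted p = 0.075). The locus of Rps14 reached more than 5 kb beyond the gene. Rpl10a, which marks the ribosomes that translate a subset of mRNAs, had 331 and 169 FPKM in Old and 147 and 284 FPKM in Young (loess 0.28, SE 0.067, adjusted p = 0.067). These genes were higher in Old in both pairs of like scale but did not pass the threshold with loess normalization. Rps29, among the highest genes, had 1171 and 603 FPKM in Old and 579 and 1119 FPKM in Young. Its log2 difference was 0.06 as deposited (loess 0.19, SE 0.15, adjusted p = 0.480).

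Rps15 was the core gene listed at 0, in Old 2 and Young 1, with 1919 FPKM in Old 1 and 1133 in Young 2. Its locus on chromosome 10 runs from 79697305 to 80369637 and takes in other genes, so its values cannot be given to Rps15 alone. In all, 7 of the 76 symbols were listed at 0, each in both Old 2 and Young 1 and above 0 in Old 1 and Young 2. They are Rps15, the paralogs Rpl10l, Rpl39l and Rps4y2, and the pseudogenes Rpl31-ps12, Rps15a-ps4 and Rps15a-ps6.

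Paralogs replace a core protein in particular tissues, and Rpl3l replaces Rpl3 in striated muscle. Rpl3l had 499.5 and 241 FPKM in Old 1 and Old 2 and 257 and 538 FPKM in Young 1 and Young 2, and Rpl3 had the values given above. The ratio of Rpl3l to Rpl3, both per length of transcript, was 10.4 in Old 1 and 9.77 in Old 2, and 10.9 in Young 1 and 12.1 in Young 2, so the young ratios lay above the old ones. The loess difference of Rpl3l was -0.01 (SE 0.055, adjusted p = 0.962) and that of Rpl3 was 0.11 (SE 0.042, adjusted p = 0.156).

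Rpl22l1, the paralog of Rpl22, had 147 and 73.5 FPKM in Old and 75.3 and 138 FPKM in Young, against 74.6 and 38.9 FPKM and 34.3 and 65.0 FPKM for Rpl22. The ratio of Rpl22l1 to Rpl22 was 1.98 and 1.89 in Old and 2.20 and 2.12 in Young. Rpl7l1, related to Rpl7, had 14.6 and 7.39 FPKM in Old and 8.46 and 16.1 FPKM in Young, against 512 and 250.3 FPKM and 184 and 350.4 FPKM for Rpl7. The ratio of Rpl7l1 to Rpl7 was 0.0284 and 0.0295 in Old and 0.0459 and 0.0460 in Young. Rpl7 rose by 0.58 with loess normalization (SE 0.078, adjusted p = 0.023), while the difference of Rpl7l1 was -0.15 (SE 0.061, adjusted p = 0.192). In each of the 3 pairs the paralog was lower relative to its partner in both old samples, and these ratios were not tested.

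**Figure D3:**
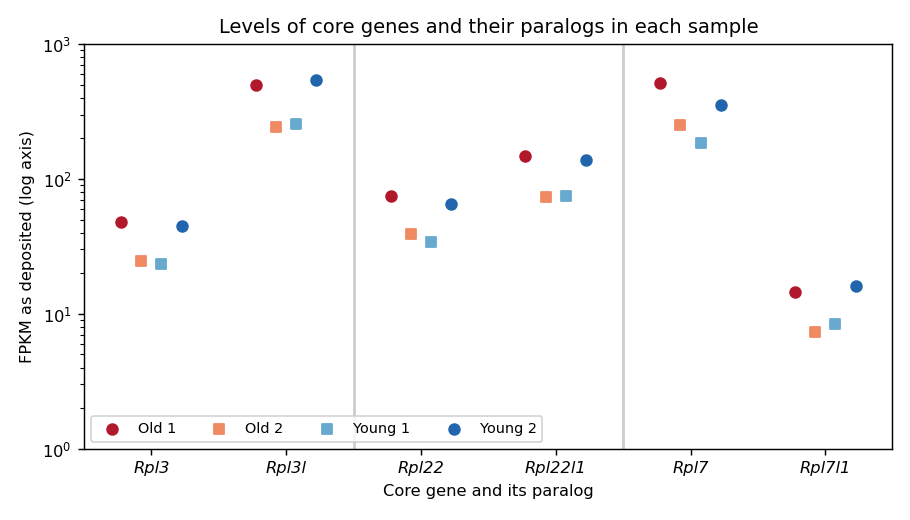
FPKM as deposited (log axis) of Rpl3, Rpl22 and Rpl7, each beside its paralog, in the 4 samples. Rpl3l lies about 10.4-fold above Rpl3 in Old 1, Rpl22l1 about 1.98-fold above Rpl22 in Old 1, and Rpl7l1 far below Rpl7.

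Rpl36al, the autosomal copy of an X-linked ribosomal protein gene, had 426 and 222 FPKM in Old and 150.3 and 283 FPKM in Young. It rose by 0.65 with loess normalization (SE 0.091, adjusted p = 0.025). Rps19bp1 had 10.04 and 3.86 FPKM in Old and 2.59 and 5.44 FPKM in Young and rose by 0.61 (SE 0.11, adjusted p = 0.039). The pseudogene Rpl34-ps1 shares its locus with Rpl34, at 603 and 311 FPKM in Old and 325 and 625 FPKM in Young, so the values of both are the same. Rps19-ps3, which shares a locus with Zfp933, had 6.06 and 0.879 FPKM in Old and 1.199 and 4.95 FPKM in Young. The paralogs and pseudogenes listed at 0 had at most 8.01 FPKM in a sample. Rpl10l had 0.111 and 0.180 FPKM in Old 1 and Young 2, Rpl39l 0.159 and 0.475, Rpl31-ps12 0.429 and 0.716, and Rps15a-ps4 0.787 and 0.970, and these 4 were below the filter.

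Ribosomal proteins whose symbols the rule did not match were read beside the others. Fau, which encodes S30 of the small subunit, had 378 and 195 FPKM in Old and 176 and 337 FPKM in Young (loess 0.23, SE 0.081, adjusted p = 0.140). Gnb2l1, now called Rack1, a scaffold on the small subunit, had 401 and 197 FPKM in Old and 225 and 446 FPKM in Young (loess -0.09, SE 0.062, adjusted p = 0.409).

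Genes that work with the ribosomal proteins were read from lists written with earlier results of these data known. Of 17 other TOP mRNAs, 15 had a value, with a median log2 fold change of 0.16 (11 higher), and 6 rose and 0 fell with loess normalization, where 11.1% and 13.6% of all tested genes did. The initiation factor Eif4b, at 111 and 54.2 FPKM in Old and 29.4 and 60.5 FPKM in Young, had the largest difference, 0.86 as deposited. Its loess difference was 0.88 (adjusted p = 0.006). The poly(A)-binding protein gene Pabpc1 had the smallest, -0.23 as deposited and -0.20 with loess normalization (adjusted p = 0.073). Of 55 ribosome assembly factors, 49 had a value, with a median of 0.28 (37 higher), and 16 rose and 3 fell with loess normalization, beside the same 11.1% and 13.6%. These factors include Mphosph10, a processome factor, at 0.93 as deposited, Npm1 at 0.64, and Nop10, of the H/ACA particles, at -0.56. With loess normalization Mphosph10 was at 0.93 (adjusted p = 0.035) and Nop10 at -0.53 (adjusted p = 0.013).

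Of 16 genes of the RNA polymerase I machinery, which transcribes rRNA, 14 had a value, with a median of 0.14 (10 higher), and 1 rose and 0 fell with loess normalization, where 11.1% and 13.6% of all tested genes did. Of 20 genes of TOP mRNA and S6 kinase signaling, 17 were tested, with a median of -0.11 (6 higher and 11 lower), and 1 rose and 5 fell, beside the same 11.1% and 13.6%. Larp1, which binds TOP mRNAs, rose by 0.56 (adjusted p = 0.015), and Eif4e, which binds the cap, fell by 0.52 (adjusted p = 0.012), both with loess normalization. No gene of these 4 lists passed the test on the FPKM as deposited.

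**Figure D4:**
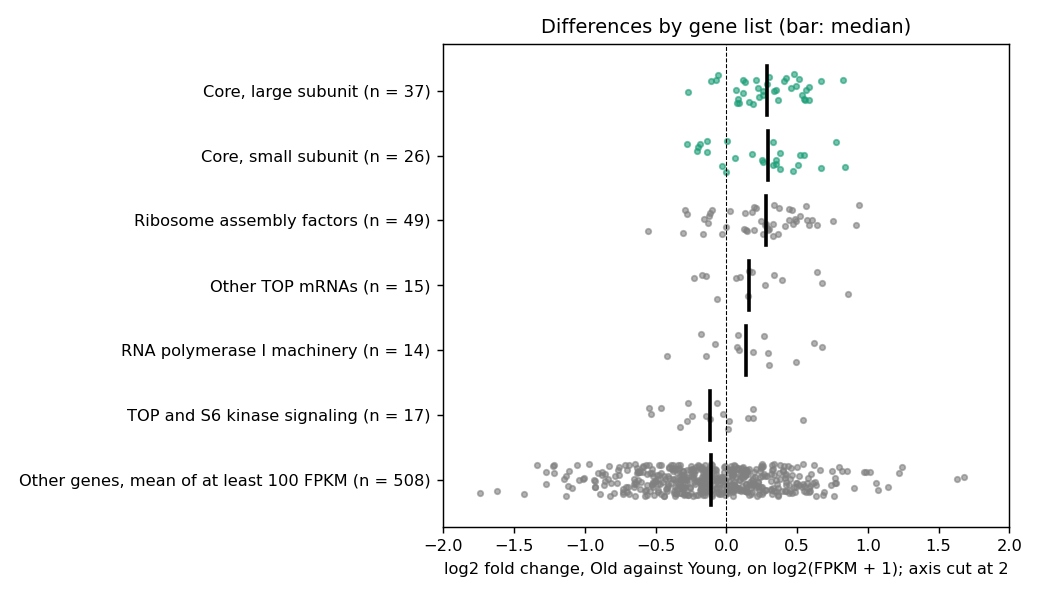
log2 fold change of Old against Young on log2(FPKM + 1) for the core genes of each subunit, 4 related lists, and other genes with a mean of at least 100 FPKM. Each point is a gene, the black bar is the median and the axis is cut at 2. Both subunits have a median of 0.29, the assembly factors 0.28, and the other highly expressed genes -0.11.

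Other highly expressed genes were read beside the core genes. The 508 other genes with a mean of at least 100 FPKM had a median log2 fold change of -0.11, with 41.9% higher in Old and 16.3% at least 1.2-fold higher in both pairs of like scale. Ribosomal protein transcripts are short, with a median length of 711.5 bases over 61 core genes, from 367.5 to 3706 bases. The longest, that of Rps20, exceeded its locus here, which spans 1128 bases. A transcript length was known for 87.4% of the 508 other genes. Among these, the median log2 fold change was -0.20 in 54 genes of up to 600 bases, -0.15 in 118 genes of 600 to 1000 bases, -0.11 in 154 genes of 1000 to 2000 bases and -0.00085 in 118 longer genes.

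Among the core genes, the log2 fold change had a Pearson's r of -0.07 with the level (Spearman's rho -0.11, 62 genes) and 0.21 with transcript length (Spearman's rho 0.097, 61 genes). It had an r of -0.68 with the log2 ratio of Young 2 to Young 1 and -0.08 with that of Old 1 to Old 2, both over 50 genes. The fold change uses the same young values as the first of these ratios, and the correlations are given as a description across genes, which are not independent replicates. The 23 core genes with a pyrimidine run of at least 8 bases within 30 bases of the start had a median of 0.29 (18 higher). The 23 with a shorter run had 0.21 (17 higher), and the 17 with no promoter sequence at hand 0.35 (16 higher).

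Markers of other cell types were also read, and none passed the threshold as deposited. With loess normalization 1 fibroblast marker rose and 3 fell, 1 leukocyte marker rose and 1 fell, and 1 endothelial marker fell. Of all tested genes 11.1% rose and 13.6% fell. Of the 3 tested adipocyte markers 2 were higher in Old and 1 lower, and of the 2 tested smooth muscle markers 1 was higher and 1 lower. The 1 tested satellite cell marker was higher and the 1 tested Schwann cell marker lower. The alpha-globin locus Hba-a1,Hba-a2, a red blood cell marker, had 607 and 277 FPKM in Old and 39.5 and 88.6 FPKM in Young. Its log2 difference was 2.77 as deposited and 2.82 with loess normalization (adjusted p = 0.005). Of the 3 erythroid markers, 2 had a value, both in this locus. The 6 fibroblast markers summed to 179 and 92.2 FPKM in Old and 132 and 261 FPKM in Young, with 4 lower in Old. The 6 leukocyte markers summed to 40.3 and 17.7 FPKM in Old and 19.3 and 44.9 FPKM in Young, with 3 of the 4 tested lower. The 4 endothelial markers with a value summed to 54.7 and 27.6 FPKM in Old and 32.1 and 62.1 FPKM in Young, with 3 lower. The part of these cell types in the ribosomal protein values was not tested.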

How the data were processed

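mRNA-seq of TA muscle was compared between 2 Old and 2 Young samples, grouped by the labels. The authors trimmed reads, removed PCR duplicates, aligned to mm10 with TopHat2 (2.0.10) guided by RefSeq genes, and deposited FPKM per locus that Cufflinks gave for each sample by itself. The labels name a TruSeq RNA kit and the methods a stranded one. The authors' calls came from Cuffdiff (2.1.1), which needs aligned reads and was not repeated.

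The last, incomplete line of each sample (1) was left out. With chromosomes in text order, values ended at chromosome 7 or the start of 8, and genes further on were not analysed here. Loci of a symbol were summed. Whole reads could not be recovered from the FPKM, so depth is unknown and no counting interval is given. log2(FPKM + 1) was tested with limma 3.58.1 in R 4.3.3 (trended eBayes, two-sided p, Benjamini-Hochberg adjustment over all tested genes). A fold change on this scale understates that of low genes. Alternatives were median scaling, quantile and cyclic loess normalization, a pseudocount of 0.1, other filters, the highest locus per symbol, no trend, a replicate block, and leaving out each sample. Crossed pairs, like-scaled pairs and single-symbol loci were added after seeing the data. Same-numbered samples deviated from their age means with a correlation of -0.88 across genes, on FPKM as deposited, where samples of an age differ in scale. This value cannot tell whether same-numbered samples were collected or processed together.

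Members, lists and the rule for named genes were chosen with earlier results of these data known. Named were stalk members, paralogs with their partners, the 5 largest and 5 smallest differences after median scaling, the 3 highest and 3 lowest levels, members listed at 0, and members with known separate roles. A gene among the 5 smallest differences is counted in the totals but not reported here by itself. Python 3.11.15, pandas 2.3.3, scipy 1.17.1 and matplotlib 3.10.9 were used.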

Additional observations from a re-analysis of the deposited data

Results flagged for a closer look

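Rps13 lay outside the comparison, because its locus had a value in Old 2 and Young 1 and was not analysed in the other 2 samples. It had 226 FPKM in Old 2 and 212 FPKM in Young 1, a ratio of 1.07. The median ratio of Old 2 to Young 1 over the core genes was 1.196. Rps13 was set apart because the comparison does not use its values. Rps15a, in the same position, had 19.5 and 25.6 FPKM, a ratio of 0.761. With 1 sample per age, neither ratio has a replicate check.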

How the results depend on the processing

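The median log2 fold change of the core genes, 0.29 as deposited, was 0.28 to 0.36 under the other settings, and -0.23 to 0.81 when a sample was left out, being below 0 without Old 1 or without Young 1. The count of core genes past the threshold, 0 as deposited, was 20 with cyclic loess normalization, 0 in every fit that left out a sample and 0 with the replicate block. All genes past the threshold numbered 31 as deposited, 225 with quantile normalization, 2530 with cyclic loess normalization, 6 with at least 1 FPKM in all 4 samples, 5 with the replicate block, and 5 to 12 with a sample left out, and the cause of these shifts was not tested. With crossed pairs as a block (Old 1 with Young 2, Old 2 with Young 1) 54 core genes (46 higher, 8 lower) of 6186 genes (2812 higher, 3374 lower) passed. Core genes whose ages did not overlap numbered 32 after median scaling (23.7% of all tested genes higher and 23.5% lower), 0 as deposited (1.61% and 1.93%) and 52 with loess normalization (31.0% and 31.0%). Within like-scaled pairs 60 had the same sign in both pairs, 49 of them higher and 11 lower, where 42.3% and 45.2% of all tested genes were.

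Of the named genes, Rplp0 turned from -0.07 to 0.048 with quantile and 0.036 with loess normalization, and Rps2 from -0.28 to 0.18 with quantile normalization. Between the lowest and the highest value with a sample left out, the sign changed for Rpl10a (-0.28 to 0.69), Rpl11 (-0.11 to 0.84), Rpl15 (-0.76 to 0.22), Rpl22 (-0.27 to 0.65), Rpl22l1 (-0.47 to 0.53), Rpl3 (-0.38 to 0.55), Rpl38 (-0.019 to 1.12), Rpl3l (-0.63 to 0.43), Rpl5 (-0.25 to 0.83), Rpl7 (-0.021 to 1.01), Rpl7l1 (-0.60 to 0.29), Rplp0 (-0.63 to 0.49), Rplp2 (-0.34 to 0.61), Rps14 (-0.40 to 0.90), Rps15 (-5.07 to 5.83), Rps15a-ps6 (-1.51 to 1.52), Rps16 (-0.68 to 0.27), Rps19 (-0.14 to 0.80), Rps2 (-0.84 to 0.28), Rps28 (-0.92 to 0.54), Rps29 (-0.42 to 0.54) and Rps4y2 (-1.496 to 1.67). It did not change for Rps6 (0.34 to 1.34), Rpl7a (0.32 to 1.33), Rps20 (0.29 to 1.26), Rps27 (0.20 to 1.15), Rpl23a (0.18 to 1.17), Rpl36al (0.11 to 1.04) or Rps19bp1 (0.02 to 1.199). Depth is unknown, and samples of an age that are nearly proportional may be technical repeats, which limits every p-value here.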
